A study of Mus musculus with 14 samples.

Results

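Proneural factors are the transcription factors that commit neural progenitors to becoming neurons. The 9 genes described here are the neurogenins Neurog1, Neurog2 and Neurog3, the atonal relative Atoh1, the NeuroD factors Neurod1 and Neurod4, the Nhlh factors Nhlh1 and Nhlh2, and the zinc-finger gene Insm1. They were taken as a named list and found by Entrez identifier, 9 of the 16060 genes present in the tables of either day. All 9 were listed at day 10 (D10), and 8 were listed at day 5 (D5), where Atoh1 was not.

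The cells were mouse embryonic stem cells of the line GLI1-FTA, in the A2Lox.cre background, differentiated to neural cells in culture. GLI1 is a zinc-finger activator of Hedgehog target genes. It is itself switched on by the pathway and strengthens the response that GLI2 and GLI3 transmit. This line carries it as a transgene that doxycycline switches on. The D5 groups, labelled neural progenitor cells, were 4 samples given doxycycline at 500 ng/ml for 48 h from day 3 to day 5 (GLI1-induced) and 4 untreated controls. The D10 groups, labelled immature neurons, were 3 samples given the same pulse and then washed and grown on for 5 days, and 3 untreated controls. Every sample came from the same transgenic line, and the controls received no doxycycline, so GLI1 and the drug cannot be told apart. The labels do not say whether replicates were separate cultures, so the p-values measure the spread between these samples, which may be technical. The values are the authors' comparison of induced with control samples for each day, with no value per library, so the depth is unknown and the spread of single samples is not shown here.

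All but Insm1 are basic helix-loop-helix (bHLH) proteins, which pair with E proteins and bind short DNA sites called E-boxes. The neurogenins and Atoh1 act first, in dividing progenitors. They switch on Delta ligands, which raise Notch signalling and Hes repressors in neighbouring cells, and they start a cascade in which NeuroD and Nhlh factors follow as cells leave the cycle. Insm1 promotes the step from progenitor to neuron and also acts in endocrine cells. In the spinal cord, Hedgehog signalling patterns the ventral progenitors, and each domain uses its own set of proneural genes.

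Markers of the labelled cells were present on both days. The 8 neural progenitor markers had average levels from 6.72 to 9.41 log2 CPM (counts per library scaled to a common total) at D5, and the 10 neuron markers from 3.58 to 9.11 at D10, in the authors' deposited tables. Neuron transcripts were already present at D5, from 1.82 to 7.72, and the 9 endoderm markers were present at D10, from 4.12 to 9.04, in the authors' deposited tables. Gli1, which checks the labels, had a log2 fold change of 4.79 at D5 and 0.57 at D10 in the authors' deposited tables. The D10 value of Gli1 did not pass, with an adjusted p of 0.780 in the authors' deposited table.

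Neurog2 and Neurog3 rose with GLI1 at D5 and the Nhlh2 gene fell, while the other 5 listed members did not pass the test. At an adjusted p under 0.05, the authors' deposited table for D5 called 2 of the 8 listed members higher and 1 lower, beside 4.44% of its 15108 genes (2.34% higher and 2.10% lower). The median log2 fold change of the 8 was 0.13, against 0.0015 over all genes of the authors' deposited table. In bulk RNA, a change in the number of cells of a type and a change in RNA per cell cannot be told apart.

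**Figure D1:**
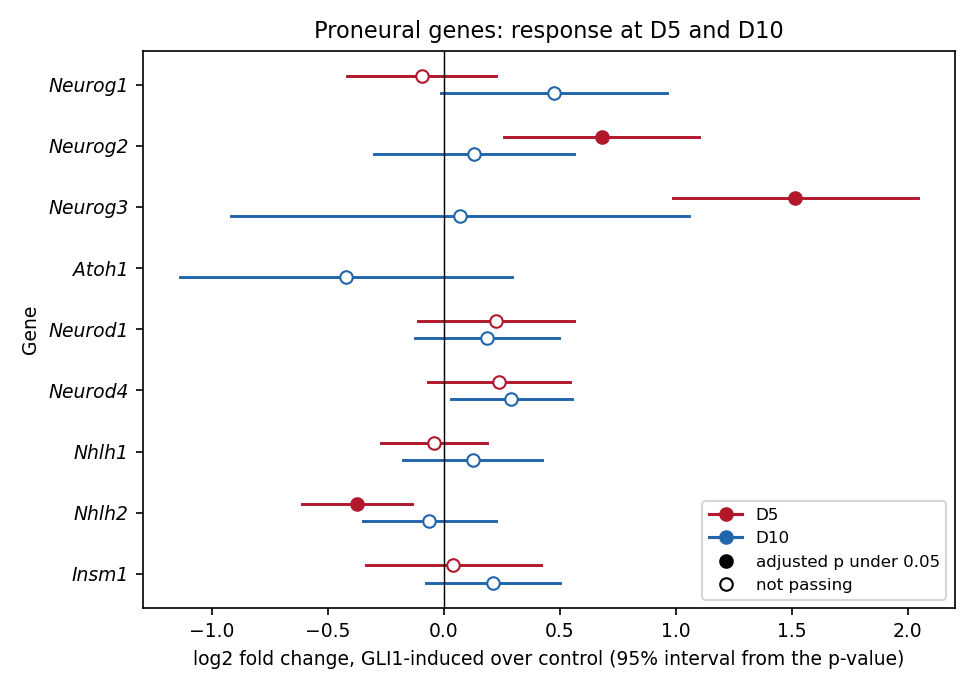
Log2 fold change of GLI1-induced over control samples for the 9 genes at D5 (red) and D10 (blue). Points are the authors' values, lines are 95% intervals computed from their p-values, and filled points have an adjusted p under 0.05. Neurog3 at 1.52 and Neurog2 at 0.68 lie right of 0 and Nhlh2 at -0.38 lies left of it at D5, and every point at D10 is open.

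Neurog3 specifies the endocrine cells of the pancreas and gut and is also found in ventral progenitors of the spinal cord. It had the largest response of the members. In the authors' deposited table for D5 its log2 fold change was 1.52, with an adjusted p of 1.64e-06, and it stood at rank 167 of 15108 genes by p. An SE of 0.27 is implied by that p-value, which gives a 2.86-fold difference with a 95% interval from 1.98-fold to 4.12-fold. Its level was low, with an average log2 CPM of 0.89 in the authors' deposited table for D5, above 11.2% of the genes. The levels that this average and fold change imply are 0.962 CPM in control and 2.75 CPM in induced samples. At D10 the log2 fold change was 0.07 in the authors' deposited table, with an implied 95% interval from -0.92 to 1.06.

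Stretches of DNA from the 250 bases before the start sites of the 3 genes that changed are shown because these genes responded and because E-boxes are the sites that proneural proteins themselves bind. They are RefSeq sequence of assembly GRCm38.p6, written 5′ to 3′ on the plus strand, with E-boxes (letters CANNTG, which read the same on both strands) in capitals, and each ends before the first annotated exon base. The windows are chr10:62132840-62133089 for Neurog3, chr3:127632886-127633134 for Neurog2 and chr3:102009895-102010075 for Nhlh2.
Neurog3: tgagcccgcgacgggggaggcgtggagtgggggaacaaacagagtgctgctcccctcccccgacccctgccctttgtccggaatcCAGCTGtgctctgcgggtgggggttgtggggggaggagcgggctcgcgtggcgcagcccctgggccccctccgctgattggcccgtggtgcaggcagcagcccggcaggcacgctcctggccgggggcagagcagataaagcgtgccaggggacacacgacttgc
Neurog2: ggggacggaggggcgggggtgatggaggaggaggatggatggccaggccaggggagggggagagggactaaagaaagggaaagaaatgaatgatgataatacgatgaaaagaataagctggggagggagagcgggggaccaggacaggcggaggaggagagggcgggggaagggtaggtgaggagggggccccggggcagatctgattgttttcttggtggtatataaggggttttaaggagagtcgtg
Nhlh2: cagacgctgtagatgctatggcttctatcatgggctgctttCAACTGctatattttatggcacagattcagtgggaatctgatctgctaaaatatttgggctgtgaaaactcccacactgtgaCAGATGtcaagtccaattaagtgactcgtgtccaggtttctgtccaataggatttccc

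The Neurog3 window holds 1 E-box, CAGCTG, which begins 165 bases before the RefSeq start. The Neurog3 window runs up to that start, the Neurog2 window ends 1 base before it, and the Nhlh2 window stops 69 bases short of it, at an annotated exon. The Nhlh2 window holds CAACTG and CAGATG, which begin 209 and 127 bases before the RefSeq start (not before the end of the printed window), and the Neurog2 window holds 0. Over the 250 bases before the start, 4 of the 8 members with a promoter sequence (Neurog3, Neurod1, Nhlh1 and Nhlh2) have an E-box, against 66.0% of 27025 RefSeq promoters. The exact letters of a strong GLI site, TGGGTGGTC on either strand, occur in 0 of the 8 windows and in 0.211% of all promoters. These matches describe letters in short windows, and no binding was measured here.

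Neurog2 drives neurogenesis along the spinal cord, including in motor neuron progenitors, and was the other member that rose. Its log2 fold change at D5 was 0.68 in the authors' deposited table, with an adjusted p of 0.0371. The implied SE of 0.21 gives a 1.60-fold difference with a 95% interval from 1.20-fold to 2.15-fold. The implied levels were 5.24 CPM in control and 8.40 CPM in induced samples. At D10 its log2 fold change was 0.13 in the authors' deposited table, with an implied 95% interval from -0.30 to 0.56.

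Neurog1, which acts in sensory ganglia and dorsal parts of the neural tube, did not pass on either day. In the authors' deposited table for D5 its log2 fold change was -0.10 with an adjusted p of 1. The implied 95% interval, from -0.42 to 0.23, lies below that of Neurog3, from 0.99 to 2.04; the difference between these genes was not tested. The largest log2 fold change of the members at D10 was that of Neurog1, 0.47 in the authors' deposited table, with an unadjusted p of 0.0560 and an adjusted p of 1.

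Per kilobase of exon, the 3 neurogenins together had an implied level of 11.1 CPM in control and 13.1 CPM in induced samples at D5. Within that sum, Neurog3 made up 5.64% in control and 13.6% in induced samples. Neurog2 made up 21.2% and 28.7%, and Neurog1, with 73.1% and 57.7%, had the largest share in both groups. At D10 the shares of Neurog3 were 6.20% in control and 5.37% in induced samples, those of Neurog2 52.7% and 47.6%, and those of Neurog1 41.1% and 47.0%. These shares are derived from averages and fold changes and carry no error of their own.

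**Figure D2:**
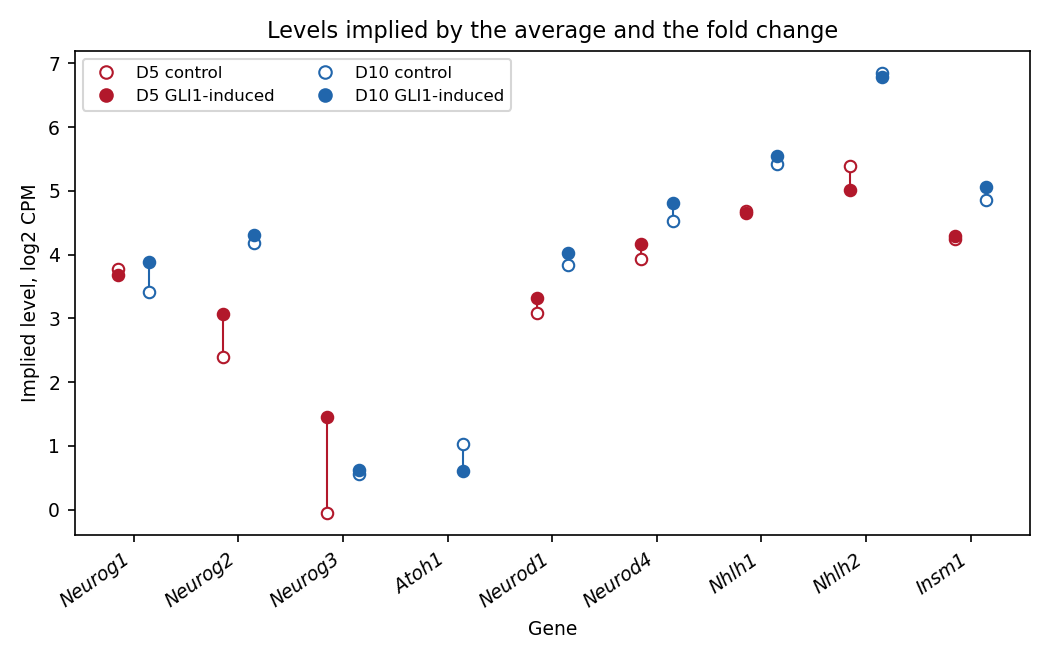
Levels in log2 CPM implied by the average level and the fold change of each gene, for control (open) and GLI1-induced (filled) samples at D5 (red) and D10 (blue). Neurog3 has the widest gap, from 0.962 to 2.75 CPM at D5, and Nhlh2 is the only filled D5 point that passed the test below its open one.

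Atoh1 specifies the most dorsal spinal interneurons, called dI1, and cerebellar granule cells. It was not listed at D5, so no level is given for that day. The D10 values of the authors' deposited table for Atoh1 were an average log2 CPM of 0.83, a log2 fold change of -0.42 and an adjusted p of 1. The implied 95% interval ran from -1.14 to 0.29. A change of 1.59 on the log2 scale would have been needed for Atoh1 to pass that day, given its implied SE of 0.37.

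Genes of the dI1 lineage that Atoh1 starts were lower at D5 where they were listed. Only 2 of the 6 genes in that list were listed at D5, and the authors' deposited table called both lower, Lhx2 at -0.93 and Pou4f1 at -0.93. Both also mark other neurons. Of all genes at D5, 2.10% were called lower. At D10 all 6 were listed and 0 passed, beside 0.0826% of all genes. The log2 fold change of 5 of them was negative in the authors' deposited table, where 51.1% of all genes had a positive value. The median of the 6 was -0.43 and that of all genes 0.0027. The lowest was the homeobox gene Barhl1 at -1.21, with an unadjusted p of 0.000155 and an adjusted p of 0.144 in the authors' deposited table. Pou4f1 at -0.40 and Lhx2 at -0.47 did not pass at D10 in the authors' deposited table either. With p-values rescaled within bins of expression, 1 of the 6 passed at D10, beside 0.756% of all genes.

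Neurod1 and Neurod4 act after the neurogenins and support the differentiation of the committed cell. In the authors' deposited table for D5 their log2 fold changes were 0.22 and 0.24, with adjusted p of 0.891 and 0.755. Neither passed, and the implied 95% intervals were -0.11 to 0.56 for Neurod1 and -0.07 to 0.54 for Neurod4. At D10 the values were 0.19 and 0.29 in the authors' deposited table, both with an adjusted p of 1. Neurod4 had the only unadjusted p under 0.05 of the 9 members at D10, 0.0287, where 1.53% of all genes had one. After p-values were rescaled within bins of expression, Neurod4 passed at D10 with an adjusted p of 0.0416, where 0.756% of genes passed.

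Nhlh1 and Nhlh2 are bHLH factors of newly born neurons, and Nhlh2 also works in hypothalamic neurons. Nhlh2 fell at D5, with a log2 fold change of -0.38 and an adjusted p of 0.0444 in the authors' deposited table. The implied SE of 0.12 gives a level 1.30-fold lower in induced samples, from 41.8 CPM in control to 32.2 CPM. Its relative Nhlh1 stood at -0.04 in the authors' deposited table, with an implied 95% interval from -0.27 to 0.19. At D10 the 2 genes stood at -0.06 for Nhlh2 and 0.12 for Nhlh1 in the authors' deposited table, both with an adjusted p of 1.

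Some neuron markers fell beside Nhlh2 and most did not pass. For D5, the authors' deposited table called 0 of the 10 neuron markers higher and 3 lower, namely the growth cone gene Gap43 at -0.70, the tubulin gene Tubb3 at -0.41 and the microtubule regulator Stmn2 at -0.39. Of all genes at D5, 2.34% were called higher and 2.10% lower. The median of the 10 was -0.09, with 7 values negative and 3 positive. Among those that did not pass, the splicing factor gene Rbfox3 was the highest, at 0.53 with an adjusted p of 0.277, and the microtubule protein gene Dcx stood at -0.0026 in the authors' deposited table. The summed implied level of the 10 was 788 CPM in control and 669 CPM in induced samples. The part of these markers in the fall of Nhlh2 was not tested. Among the 8 progenitor markers the authors' deposited table had 0 calls at D5, and their median was -0.0053, with implied sums of 2007 and 1988 CPM.

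Insm1 and Nhlh1 were the members closest to no change at D5, at 0.04 and -0.04 in the authors' deposited table. The value of Insm1 had an adjusted p of 1 and an implied 95% interval from -0.34 to 0.42. At D10 the value of Insm1 was 0.21 in the authors' deposited table, again with an adjusted p of 1.

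The calls of Neurog2 and Nhlh2 lay close to the threshold. Both were lost at an adjusted p under 0.01, with Holm's adjustment and with a minimum of 2-fold, each of which left Neurog3 alone among the members. The smallest change that would have passed at D5, from each gene's implied SE and the largest p called (0.00221), ran from 1.28-fold for Nhlh1 to 1.77-fold for Neurog3. These are cut-offs on the measured change, so a member that did not pass is not shown to be unchanged.

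**Figure D3:**
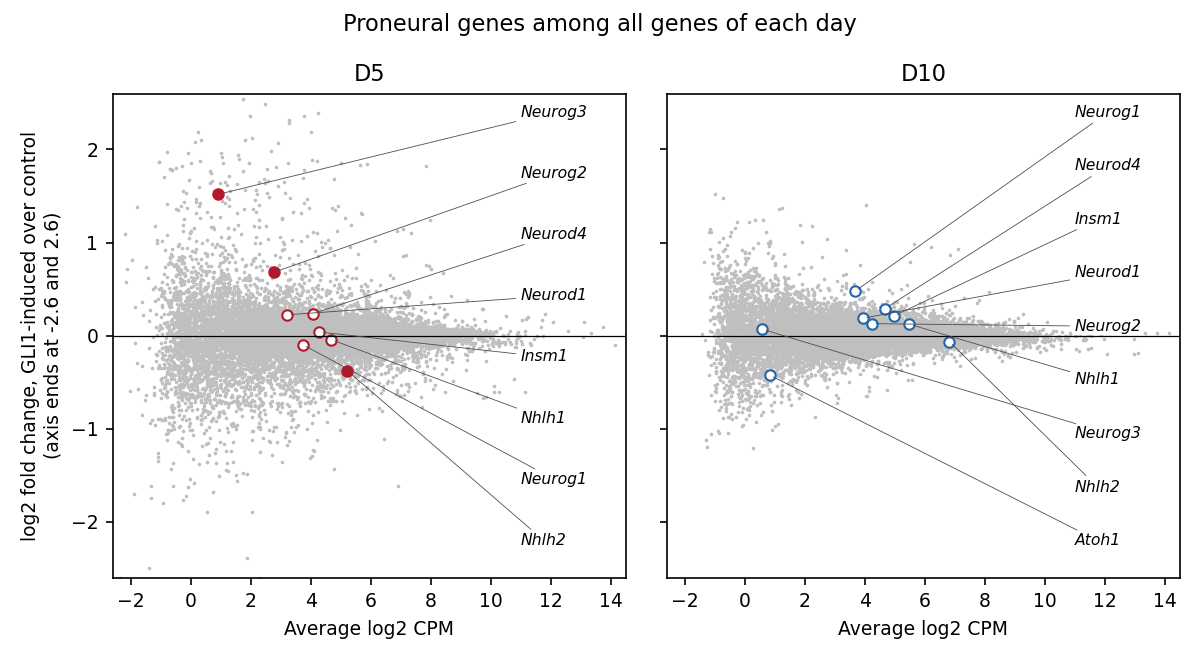
Average log2 CPM against log2 fold change for all genes (grey) and the members (circles, filled where the adjusted p is under 0.05) at D5 and D10; genes past -2.6 or 2.6 lie outside the axis. Neurog3 lies at a low level of 0.89 log2 CPM with a fold change of 1.52, and the members at D10 lie between -0.42 and 0.47.

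At D10, after washout, the authors' deposited table called 0 of the 9 members, beside 0.0826% of its 15744 genes. At an unadjusted p under 0.05 there was 1 member, Neurod4. The log2 fold change was positive for 7 members and negative for 2, Atoh1 and Nhlh2, and the median was 0.13 against 0.0027 over all genes in the authors' deposited table. A measured change from 1.49-fold for Neurod4 to 4.56-fold for Neurog3 would have been needed to pass. A measured D10 difference of Neurog3 as large as that at D5 would therefore not have passed.

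The change in response between the days was tested directly for the 8 members in both tables. None passed, at 0 of 8 with an adjusted p under 0.05 in the test from implied SEs, against 1.24% of the 14792 shared genes, and 1 of 8 had an unadjusted p under 0.05, against 4.91% of the shared genes. That member was Neurog3, for which the D10 less the D5 log2 fold change was -1.45 with a 95% interval from -2.57 to -0.33. Its unadjusted p was 0.0114 and its adjusted p was 0.426. For Neurog2 the difference was -0.55 with an interval from -1.15 to 0.05, and for Neurog1 it was 0.57 with an interval from -0.01 to 1.15. For Nhlh2 it was 0.31, from -0.06 to 0.68. The rise of Neurog3 at D5 and its missing call at D10 are therefore not shown to differ after adjustment.

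Levels per kilobase of exon gave another order from the fold changes. At D5 the order from high to low was Nhlh1 (10.3 CPM per kilobase), Neurog1 (7.84), Nhlh2 (6.84), Insm1 (6.22), Neurod4 (4.99), Neurod1 (3.38), Neurog2 (3.06) and Neurog3 (1.21). At D10 it was Nhlh2 (20.9), Nhlh1 (18.2), Insm1 (10.1), Neurog2 (8.49), Neurod4 (7.62), Neurog1 (7.54), Neurod1 (5.60), Neurog3 (0.977) and Atoh1 (0.838). These are averages over induced and control samples, and the spread over samples is not known, so neighbours in the order were not compared by a test. Neurog3 and Atoh1 stood well under the other 7 at D10.

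The average level was higher in the D10 table than in the D5 table for 6 of the 8 members, with a median difference of 0.71 on the log2 scale against 0.0053 over the 14792 shared genes. Nhlh2 was 3.05-fold and Neurog2 2.77-fold higher at D10, while Neurog3 and Neurog1 had lower averages, with log2 differences of -0.30 and -0.06. The days were normalized separately, so these are values side by side with no test.

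Partners and inhibitors of the proneural proteins were given by lists. The 3 E proteins that pair with them had average levels from 7.16 to 8.26 log2 CPM at D5 and 6.43 to 7.74 at D10 in the authors' deposited tables, and none was called on either day. On the log2 fold change scale the authors' deposited table for D5 put Tcf12 at 0.03 and Tcf3 at 0.08. For D5, the authors' deposited table called 3 of the 10 listed Id, Hes and Hey inhibitors higher and 0 lower, beside 4.44% of genes. All 3 were Hey genes, repressors that Notch switches on. Heyl stood at 4.68, Hey2 at 1.18 and Hey1 at 0.94 in the authors' deposited table, and the median of the list was 0.16. The average level of Heyl was low, at 0.69 log2 CPM. In the list 6 values were positive and 4 negative, among them Id3 at -0.35 (adjusted p of 0.0766) and Id2 at -0.30 (0.109). The summed implied level of the list was 332 CPM in control and 326 CPM in induced samples. Hes5, the usual readout of Notch in neural progenitors, did not pass, at 0.06 in the authors' deposited table. After washout, the authors' deposited table for D10 had 0 calls among the inhibitors, beside 0.0826% of all genes, and a list median of -0.025.

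Targets of proneural proteins were also taken as a list, beside shares of 4.44% of all genes called at D5 and 0.0826% at D10. For D5, the authors' deposited table called 1 of the 20 listed targets and co-factors higher and 1 lower, and their median was 0.11, with 14 values positive and 6 negative. The higher gene was Mfng at 0.64, a glycosyltransferase that modifies Notch receptors, and the lower one was Ebf3 at -0.57, a factor of differentiating neurons. The Delta genes Dll1 at 0.17 and Dll3 at 0.09 did not pass in the authors' deposited table. Closer to the threshold lay the growth arrest gene Gadd45g at 0.47 (adjusted p of 0.0795) and the co-repressor gene Cbfa2t2 at 0.25 (0.0986) in the authors' deposited table. The count of 2 became 4 at an adjusted p under 0.1 and 5 with rescaled p. At D10 the targets had 0 calls and a median of 0.04 in the authors' deposited table.

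Among other neurogenic factors, the authors' deposited table for D5 called 1 of 7 listed bHLH genes and 1 of 7 listed zinc-finger genes, both lower. Of all genes, 2.10% were called lower that day. Bhlhe23, a factor of the bipolar cells of the retina, was at -0.97 in the authors' deposited table, and that call was lost with rescaled p. Scrt2, a repressor of newly born neurons, stood at -1.24 in the authors' deposited table. The medians in the authors' deposited table for D5 were 0.13 for the bHLH list and -0.07 for the zinc-finger list. After washout, the authors' deposited table for D10 had 0 calls in both lists, beside 0.0826% of all genes, and the list medians were -0.01 and 0.03.

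**Figure D4:**
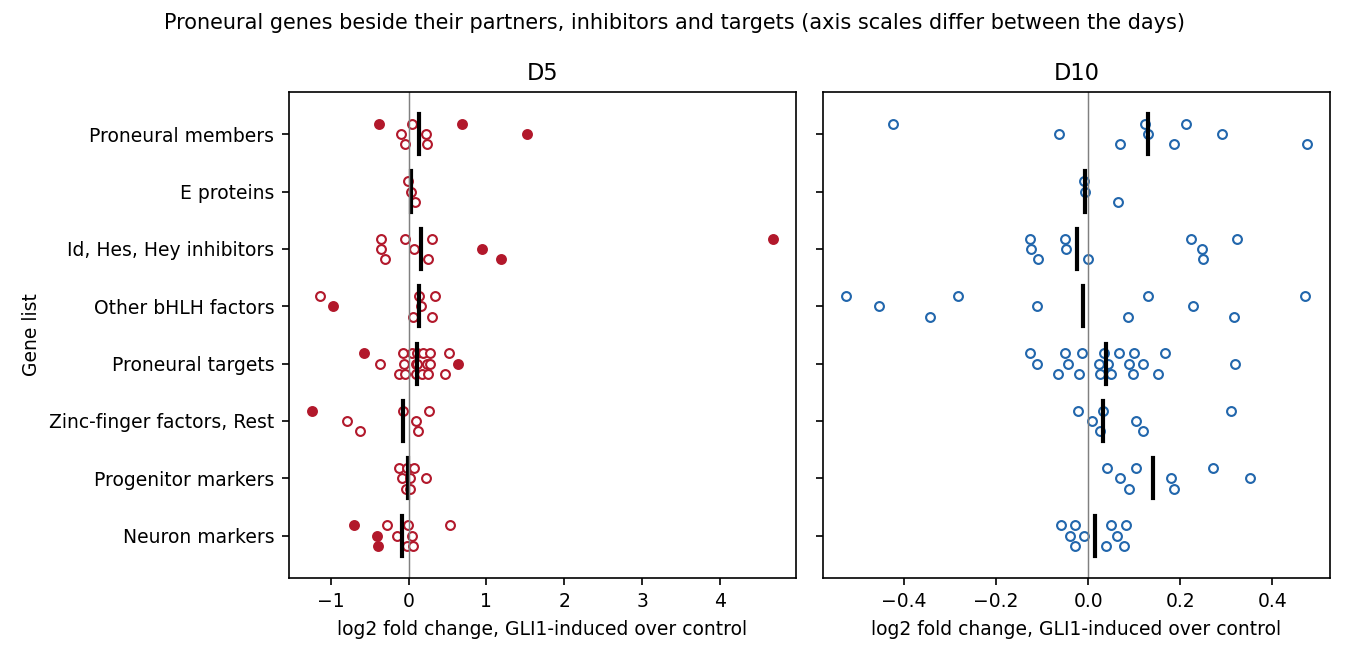
Difference on the log2 scale (fold change) of GLI1-induced over control samples for each listed gene at D5 and D10, by list, with the list median as a black bar; filled points have an adjusted p under 0.05. At D5 the calls are the 3 Hey genes, Neurog2, Neurog3 and Mfng on the higher side and Nhlh2, Bhlhe23, Ebf3, Scrt2 and 3 neuron markers on the lower side, and at D10 every point is open; the axis scales differ.

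Of the genes of the V3 domain, the ventral progenitors next to the floor plate, 2 rose at D5 beside Neurog3. For D5, the authors' deposited table called 2 of the 3 listed V3 genes higher and 0 lower, beside 2.34% and 2.10% of all genes. The 2 were Nkx2-9 at 5.72 and Nkx2-2 at 5.38. The third, the homeobox gene Uncx, had the opposite sign, at -1.03 with an adjusted p of 0.119 in the authors' deposited table. The D10 values of the authors' deposited table held 1 call among 5, beside 0.0826% of all genes, and the median of the 5 was 0.36. The call was the higher gene Slc17a8 at 1.17, which loads glutamate into synaptic vesicles. That call was lost at an adjusted p under 0.01 and with Holm's adjustment. Neurog3 at D10 stood at 0.07 in the authors' deposited table. Whether Neurog3 and the V3 factors changed in the same cells was not tested.

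Genes whose pair of log2 fold changes (D5 and D10) lay closest to that of a called member were found among 12380 or 12381 genes whose average log2 CPM was 1 or more on both days. Likeness over only 2 values is a description. For Neurog3 they were Vstm2b (1.48 and 0.05), Slc8a3 (1.53 and 0.02), Col3a1 (1.55 and 0.03), Pde1c (1.64 and 0.08) and Metrnl (1.65 and 0.03) in the authors' deposited tables. For Neurog2 they were Rab34, Kif26a, Snord64, Tril and Adcy2, with distances from 0.0124 to 0.0270 in the plane of the 2 log2 fold changes. For Nhlh2 they were Syne4, Stard8, Slc26a2, Gdpd5 and Tpm1, with distances from 0.00372 to 0.0122, and none of these 5 passed at D5 in the authors' deposited table.

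The 9 genes share a compact structure, with a coding sequence on 1 exon in each, from 399 bases in Nhlh1 to 1563 bases in Insm1 (GENCODE M21). Neurog3 overlaps the gene Fam241b, which is read from the opposite strand. Fam241b stood at 0.05 in the authors' deposited table for D5 with an adjusted p of 1. Tspan15, the next listed gene on the other side of Neurog3, stood at -0.06 in the authors' deposited table. The nearest listed genes around Neurog2 were Zgrf1 at 0.10 and Alpk1 at 0.08, and those around Nhlh2 were Slc22a15 at -0.18 and Vangl1 at 0.16, in the authors' deposited table for D5, and none of these passed.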

How the data were processed

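Polyadenylated RNA was sequenced from 14 samples as single-end reads of 50 bases, per the labels' protocols. Per the file headers, the values deposited by the authors are log fold changes, average log CPM, p-values and FDR, by Entrez gene. The log2 base of the deposited average follows from its powers of 2, which sum to 1001540 at D5 and 1001340 at D10, and base 2 was assumed for the fold change too. The deposited FDR matches Benjamini-Hochberg values within 3.41e-05. Aligner, counting, test, low-count filter and build: not given in the sources used here. Reads are stranded per the labels; whether counting used strand is not stated. Depth is unknown.

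Symbols came from the authors' selected tables and RefSeq (GRCm38.p6), for 14295 genes at D5 and 14891 at D10. An implied SE is the size of the log2 fold change over that of the normal z of its p; 95% intervals are 1.96 SE either side. Implied CPM per group solves average and fold change for groups of equal size. With no value per library, no permutation over samples could be run. Days were compared by the difference of fold changes over the combined SE, with a normal reference and adjustment over all shared genes. Exon lengths came from GENCODE M21. Rescaling divides z, in bins of about 500 genes ordered by level, so that its median size is that of a standard normal. The median p over all genes was 0.536 at D5 and 0.684 at D10. At D10 1.53% of genes had an unadjusted p under 0.05, a smaller share than that threshold gives with no effect. Implied SEs at D10 may therefore be too wide, with the intervals, changes needed to pass and comparison of days that rest on them. Scripts (Python 3.11.15, scipy 1.17.1) were tested on simulated data.

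The members and 14 related lists were chosen with earlier results of these data known. All members are named, with up to 4 called genes per list and day, or up to 2 of the highest level where none was called, and the 5 most similar genes per called member. Dll1, Dll3, Gadd45g, Cbfa2t2, Hes5, Id2, Id3, Rbfox3, Uncx, Barhl1 and chromosomal neighbours were chosen after their values were seen. Part of what this rule selects is not reported here.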

Additional observations from a re-analysis of the deposited data

How the results depend on the processing

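The 3 members called at D5 became 1 at a threshold of 0.01, 1 with Holm's adjustment and 1 with a minimum of 2-fold, which was Neurog3 each time. They were Neurog2, Neurog3 and Nhlh2 at a threshold of 0.1 and with rescaled p, and Neurog2 and Nhlh2 where genes needed an average log2 CPM of at least 1, which leaves Neurog3 out by construction. Over the settings that include it, the adjusted p of Neurog3 ran from 1.64e-06 to 0.00126. At D10 the count of 0 became 1 with rescaled p (Neurod4), where 0.756% of all genes passed, and stayed 0 in the other 5 settings. Rescaled p also raised counts of the related lists at D10, from 0 to 1 for the bHLH and dI1 lists, from 0 to 2 for the progenitor and the sensory and crest markers and from 1 to 2 for the endocrine list. At D5 it raised the inhibitors from 3 to 5 and the targets from 2 to 5. It also raised the neuron markers from 3 to 4 and the endoderm markers from 4 to 5, and lowered the bHLH list from 1 to 0. These counts take higher and lower genes together. The count of 0 members that differ between days held in all 6 settings, a t reference with 10 degrees of freedom included, and the adjusted p of Neurog3 ran from 0.174 to 1. No paired analysis was possible because the files hold no value per library, and for that reason leaving out each replicate was not run.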

Other observations

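Lists of other cells that express these factors were read beside the shares of all genes called, 4.44% at D5 and 0.0826% at D10. Motor neuron genes, which lie in the lineage of Neurog2, had 0 calls among 2 listed at D5 (Isl1 at 0.73 and the acetylcholine transporter gene Slc18a3 at 0.62) and 0 among 6 at D10, with medians of 0.68 and 0.18 in the authors' deposited tables. Of 4 listed endocrine lineage genes at D5, where Neurog3 and Insm1 also act, the authors' deposited table called 0 higher and 1 lower, the endocrine factor Rfx6 at -0.89, and the hormone and islet genes Ins1, Ins2, Gcg, Pdx1 and Pax4 were not listed on either day. For D10, the authors' deposited table called 1 of 4 endocrine genes higher and 0 lower. Sensory and neural crest markers, where Neurog1 acts, had 0 calls on either day, among 4 and 8 listed genes (2 at D10 with rescaled p), with medians of -0.29 and -0.35 in the authors' deposited tables.

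Endoderm and pluripotency markers showed what else the cultures held. Their counts stand beside 4.44% of all genes called at D5 and 0.0826% at D10. For D5, the authors' deposited table called 2 of 9 endoderm markers higher, Foxa1 at 1.41 and Foxa2 at 1.37, which the floor plate expresses too, and 2 lower, Gata4 at -0.78 along with Gata6 at -0.67. Their summed implied level was 478 CPM in control and 390.1 CPM in induced samples, and 0 passed at D10. The D5 values of the authors' deposited table held 1 lower and 0 higher calls among 7 pluripotency markers, Dppa5a at -0.73, with implied sums of 39.4 and 27.4 CPM, and 0 passed at D10. The progenitor and neuron markers also had 0 calls at D10 in the authors' deposited table, with medians of 0.14 and 0.014.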
